A study of Rattus norvegicus with 12 samples.

Results

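Glycogen metabolism was followed through 8 genes of its enzymes and regulators in the liver of rats given a triazole fungicide. The genes were the phosphatase targeting subunits Ppp1r3b and Ppp1r3c, the liver glycogen synthase Gys2, the liver glycogen phosphorylase Pygl, and Ugp2, Gbe1, Pgm1 and Gyg1. All probe sets annotated to 1 of these genes were taken, which gave 9 of the 31042 probe sets of the array and covered 7 of the 8 genes. Ppp1r3c was not analysed here, because no probe set was annotated to it. Ppp1r3b and Pgm1 had 2 probe sets each, and all 9 passed the filter on dim probe sets, which left 21730.

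The livers came from male Sprague-Dawley rats, 10 weeks of age, that received gavage doses at intervals of 24 h for 72 h. One group was given myclobutanil and another propiconazole, both at 300 mg/kg/day, and the remaining treated group triadimefon at the lower dose of 175 mg/kg/day, while the treatment of the control rats is not named in the labels. The compounds are triazoles that differ in the rest of the molecule: a nitrile and a butyl chain in myclobutanil, a dioxolane ring in propiconazole and a ketone in triadimefon. With 3 rats in each of the 4 groups and 1 Affymetrix Rat Genome 230 2.0 array per rat there were 12 arrays. The labels do not say how long the rats had been without food before the livers were taken.

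Glycogen is the branched glucose polymer in which the liver stores glucose after a meal and from which it releases glucose between meals. Glycogenin starts a chain, glycogen synthase lengthens it with glucose from UDP-glucose, and the branching enzyme adds branches, while glycogen phosphorylase takes glucose off as glucose 1-phosphate. Protein phosphatase 1 switches synthase on and phosphorylase off, and its targeting subunits, among which Ppp1r3b is the main form of rat liver, bring it to the glycogen particle.

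Expression is given as a log-like score, the authors' deposited value after quantile normalization in the re-analysis. Because no log base is stated, differences between groups stay in score units, no fold changes are given, and levels of different genes are not compared. Mean scores rank probe sets only to leave out dim ones and to tell which probe set of a gene is the brighter. Each difference carries its SE from limma and was called at an adjusted p under 0.05 over all tested probe sets. Precision is limited by the number of arrays, with a median 95% interval of 0.141 units either way.

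Myclobutanil replicate 1 stood apart from the rest of the series, with a deposited array median of 0.157 (the remaining 11 lay between 0.0182 and 0.0552) and a median correlation with them of 0.928, where the remaining arrays had 0.962 to 0.982. Of 10 hepatocyte markers 9 had a probe set, and all 9 passed the filter on dim probe sets, whereas 4 of 5 skeletal muscle markers did not. As a measure of RNA integrity, the score of the GAPDH 3' probe set minus that of the 5' probe set ran from 0.478 to 0.716 with myclobutanil, 0.352 to 0.554 with propiconazole, 0.423 to 0.827 with triadimefon and 0.368 to 0.808 in control.

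Ppp1r3b, the glycogen targeting subunit, fell with myclobutanil and with propiconazole. Its brighter probe set, 1384262_at, had scores of 0.19, 1.42 and 0.82 in the 3 myclobutanil livers, 0.80, 0.64 and 0.94 in the propiconazole livers, 1.36, 1.26 and 1.60 in the triadimefon livers, and 2.14, 1.97 and 1.84 in the control livers. All 9 treated livers lay below all 3 control livers. The group means, from lowest to highest, were 0.79 ± 0.15 with propiconazole, 0.81 ± 0.61 with myclobutanil, 1.41 ± 0.17 with triadimefon and 1.98 ± 0.15 in control (SD, n = 3 each). Propiconazole and myclobutanil overlapped, as did myclobutanil and triadimefon, whereas triadimefon lay apart from control by 0.57, more than the SD of either group.

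Against control, Ppp1r3b 1384262_at fell by 1.17 ± 0.24 with myclobutanil (limma adjusted p = 0.0395) and by 1.19 ± 0.24 with propiconazole (limma adjusted p = 0.0365). Only 2 of the 21730 tested probe sets had a lower difference with propiconazole, and 10 had one with myclobutanil. These ranks are a description, since the genes were chosen with earlier results of these data known. With triadimefon, at the lower dose, the difference was -0.57 ± 0.24 and did not pass the test (limma adjusted p = 0.322). The 3 comparisons share the control arrays, so they are not independent of each other. In bulk liver RNA, fewer cells of a type and less RNA per cell cannot be told apart.

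The propiconazole livers lay close together in Ppp1r3b, within 0.30 of each other, while the myclobutanil livers spread over 1.23 units, with replicate 1 lowest. When myclobutanil replicate 1 was left out, the difference for that compound was -0.86 ± 0.17 and still passed (limma adjusted p = 0.0321), and with arrays weighted by their noise it was -0.64 ± 0.15 (limma adjusted p = 0.0298). The call for myclobutanil ended with the 2 groups fitted alone (limma adjusted p = 0.216) and without control replicates 1, 2 or 3 or myclobutanil replicate 3 (limma adjusted p = 0.119, 0.102, 0.119 and 0.092), and the call for propiconazole ended whichever of its 6 arrays was left out (limma adjusted p from 0.0927 to 0.124), with differences from -1.26 to -1.11, and without the filter on dim probe sets (limma adjusted p = 0.0501).

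**Figure D1:**
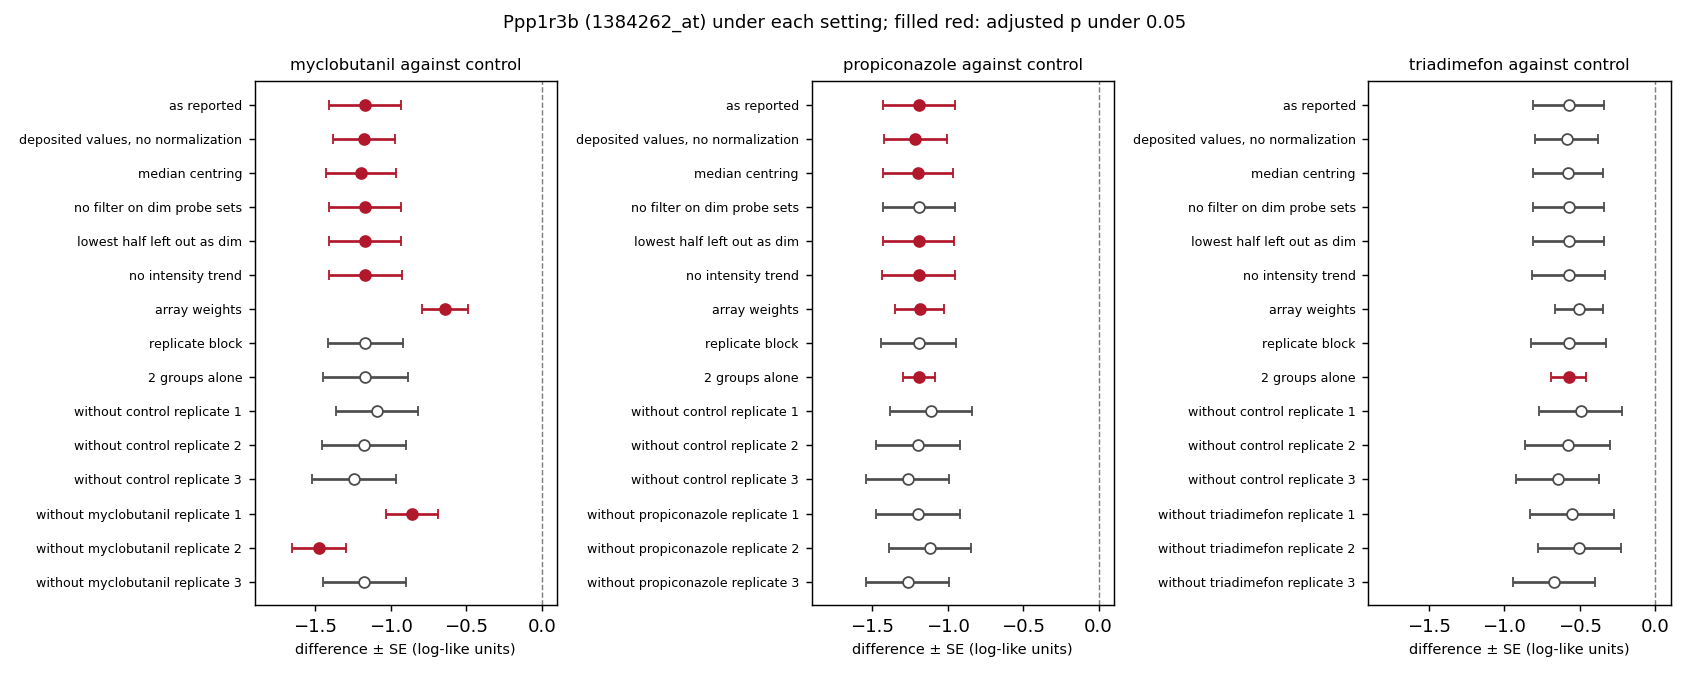
Difference of Ppp1r3b probe set 1384262_at from control, in log-like units, for each compound under the reported setting and under each alternative. Points are differences, bars are SE, and filled red points have an adjusted p under 0.05. All differences lie below 0, those for propiconazole between -1.26 and -1.11 and those for myclobutanil between -1.47 and -0.64.

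The other Ppp1r3b probe set, 1371161_at, was dimmer. Its scores were -0.37, 0.03 and -0.23 with myclobutanil, -0.20, -0.06 and -0.11 with propiconazole, -0.23, -0.10 and 0.13 with triadimefon, and 0.72, -0.06 and 0.04 in control. Control replicate 1 stood far above all other livers, and control replicates 2 and 3 lay among the treated ones. The differences of -0.42 ± 0.18, -0.35 ± 0.18 and -0.30 ± 0.18 for myclobutanil, propiconazole and triadimefon had the direction of the brighter probe set and did not pass (limma adjusted p = 0.202, 0.39 and 0.51). Without control replicate 1 they were -0.18, -0.11 and -0.05. Over the 12 livers the probe sets of Ppp1r3b had a Pearson correlation of 0.73 and a Spearman correlation of 0.79, given as a description, since the livers share 4 groups.

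**Figure D2:**
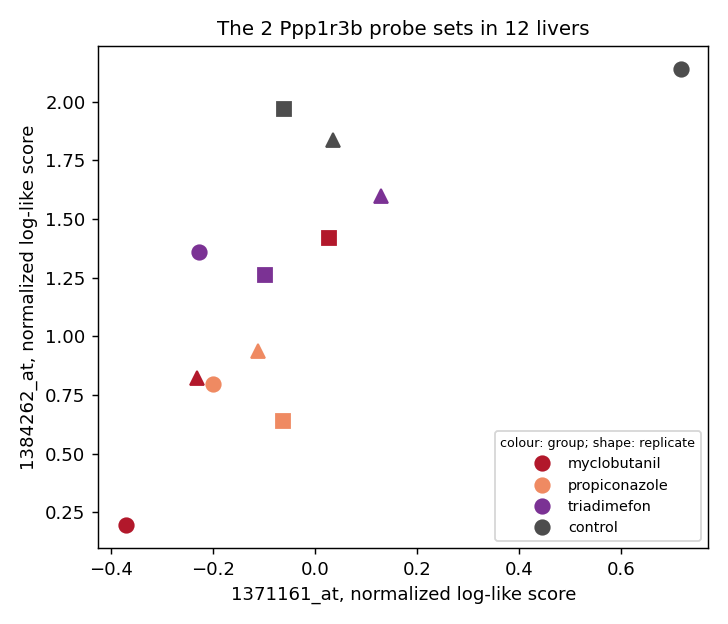
Scores of the 2 Ppp1r3b probe sets in each of the 12 livers, 1371161_at on the x axis and 1384262_at on the y axis, in normalized log-like units, with colour for the group and shape for the replicate. The 3 control livers have the highest scores on the y axis, from 1.84 to 2.14, and control replicate 1 alone stands far to the right at 0.72.

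At the matched dose of 300 mg/kg/day, no difference in Ppp1r3b passed the test between myclobutanil, with its nitrile and butyl chain, and propiconazole, with its dioxolane ring. The difference of 1384262_at, myclobutanil minus propiconazole, was 0.02 with a 95% interval from -0.50 to 0.54 (limma adjusted p = 0.977), so differences within that interval in either direction are not resolved. It was 0.33 without myclobutanil replicate 1, -0.28 without myclobutanil replicate 2 and 0.54 with arrays weighted by their noise (limma adjusted p = 0.544, 0.404 and 0.0908). This was the one pair of compounds compared, since triadimefon was given at another dose.

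The enzymes that build glycogen from glucose 1-phosphate did not pass the test with any compound. Gys2, the liver synthase itself, had scores of 1.03, 0.76 and 0.83 with myclobutanil, 1.01, 1.03 and 1.08 with propiconazole, 1.22, 0.93 and 0.97 with triadimefon, and 0.97, 0.97 and 1.07 in control. Each compound's livers overlapped those of control, and the differences were -0.13 ± 0.09, 0.04 ± 0.09 and 0.04 ± 0.09 (limma adjusted p = 0.415, 0.902 and 0.902). The myclobutanil difference was -0.21 without myclobutanil replicate 1, -0.08 without replicate 2 and -0.23 with arrays weighted by their noise (limma adjusted p = 0.176, 0.642 and 0.062), and the triadimefon difference was -0.05 without triadimefon replicate 1. The 95% interval of the synthase difference was -0.33 to 0.07 with myclobutanil, -0.16 to 0.24 with propiconazole and -0.16 to 0.24 with triadimefon.

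Ugp2 makes UDP-glucose, the glucose donor of the synthase. It scored 2.32, 2.36 and 2.45 with myclobutanil, 2.78, 2.53 and 2.72 with propiconazole, 2.96, 2.69 and 2.68 with triadimefon, and 2.66 in each control liver. The myclobutanil livers lay below all the others, with a difference of -0.28 ± 0.09 from control that did not pass (limma adjusted p = 0.12). The difference from propiconazole at the matched dose was of like size, -0.30 with a 95% interval from -0.50 to -0.10, and did not pass either (limma adjusted p = 0.381). For propiconazole and triadimefon the differences from control were 0.02 ± 0.09 and 0.12 ± 0.09, and the triadimefon one was 0.02 without triadimefon replicate 1. With the deposited values, before quantile normalization, the difference of myclobutanil from control was -0.49 ± 0.16 (limma adjusted p = 0.134), and with arrays weighted by their noise it passed, at -0.29 (limma adjusted p = 0.0454).

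Gbe1, the branching enzyme, scored 2.75, 2.56 and 2.04 with myclobutanil, 2.55, 2.56 and 2.53 with propiconazole, 2.82, 2.61 and 2.60 with triadimefon, and 2.67, 2.66 and 2.75 in control. Myclobutanil replicate 3 stood far below the rest, and the propiconazole livers lay just below all control livers. Differences from control were -0.25 ± 0.15, -0.15 ± 0.15 and -0.02 ± 0.15 for the 3 compounds (limma adjusted p = 0.353, 0.70 and 0.977), and without myclobutanil replicate 3 the first was -0.04. Without myclobutanil replicate 1 it was -0.40. The 3 differences were -0.41, -0.32 and -0.17 with the deposited values and -0.43, -0.31 and -0.16 with median centring.

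Gyg1, glycogenin, which primes new glycogen, was the one gene with a positive difference for myclobutanil. Its scores were 0.98, 0.71 and 0.78 with myclobutanil, 0.65, 0.60 and 0.66 with propiconazole, 0.82, 0.76 and 0.77 with triadimefon, and 0.63, 0.73 and 0.68 in control. The myclobutanil livers lay above all propiconazole livers, by 0.19 ± 0.07 on average with a 95% interval from 0.04 to 0.34, which did not pass (limma adjusted p = 0.442). Myclobutanil replicate 1 carried the highest score, and without it the difference was 0.11, while with arrays weighted by their noise it was 0.09. The triadimefon livers lay above all control livers, with a difference of 0.11 ± 0.07 that did not pass (limma adjusted p = 0.535).

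Pygl, the liver phosphorylase that breaks glycogen down and the target that Ppp1r3b-bound phosphatase switches off, showed the same side of control in every treated liver. It scored 1.86, 1.87 and 1.47 with myclobutanil, 1.73, 1.96 and 1.80 with propiconazole, 1.90, 1.89 and 1.75 with triadimefon, and 2.15, 2.06 and 2.17 in control. The differences of -0.40 ± 0.11, -0.30 ± 0.11 and -0.28 ± 0.11 did not pass (limma adjusted p = 0.091, 0.245 and 0.303). Control formed the top of the order and lay apart from triadimefon, its nearest neighbour, by more than the SD of either group, while the 3 compounds overlapped. Of all tested probe sets, 4.45% had all 9 treated livers below all 3 control livers, and of the 9 glycogen probe sets Pygl and Ppp1r3b 1384262_at did.

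Pgm1 converts glucose 1-phosphate and glucose 6-phosphate into each other and so serves synthesis and breakdown alike. Its brighter probe set, 1388634_at, scored 1.72, 1.69 and 1.56 with myclobutanil, 1.54, 1.81 and 1.50 with propiconazole, 1.56, 1.66 and 1.58 with triadimefon, and 1.95, 1.68 and 1.79 in control. The differences were -0.15 ± 0.10, -0.19 ± 0.10 and -0.21 ± 0.10 (limma adjusted p = 0.413, 0.426 and 0.413), and only the triadimefon livers lay below all control livers. Without control replicate 1 the differences were -0.08, -0.12 and -0.13. The dimmer one, 1369473_at, ranged from -0.09 to 1.01 over the treated livers and from 0.35 to 1.23 in control, with differences of -0.43 ± 0.25, -0.05 ± 0.25 and -0.21 ± 0.25 that did not pass (limma adjusted p = 0.335, 0.962 and 0.773). Its differences also rested on control replicate 1, without which they were -0.17, 0.22 and 0.06.

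**Figure D3:**
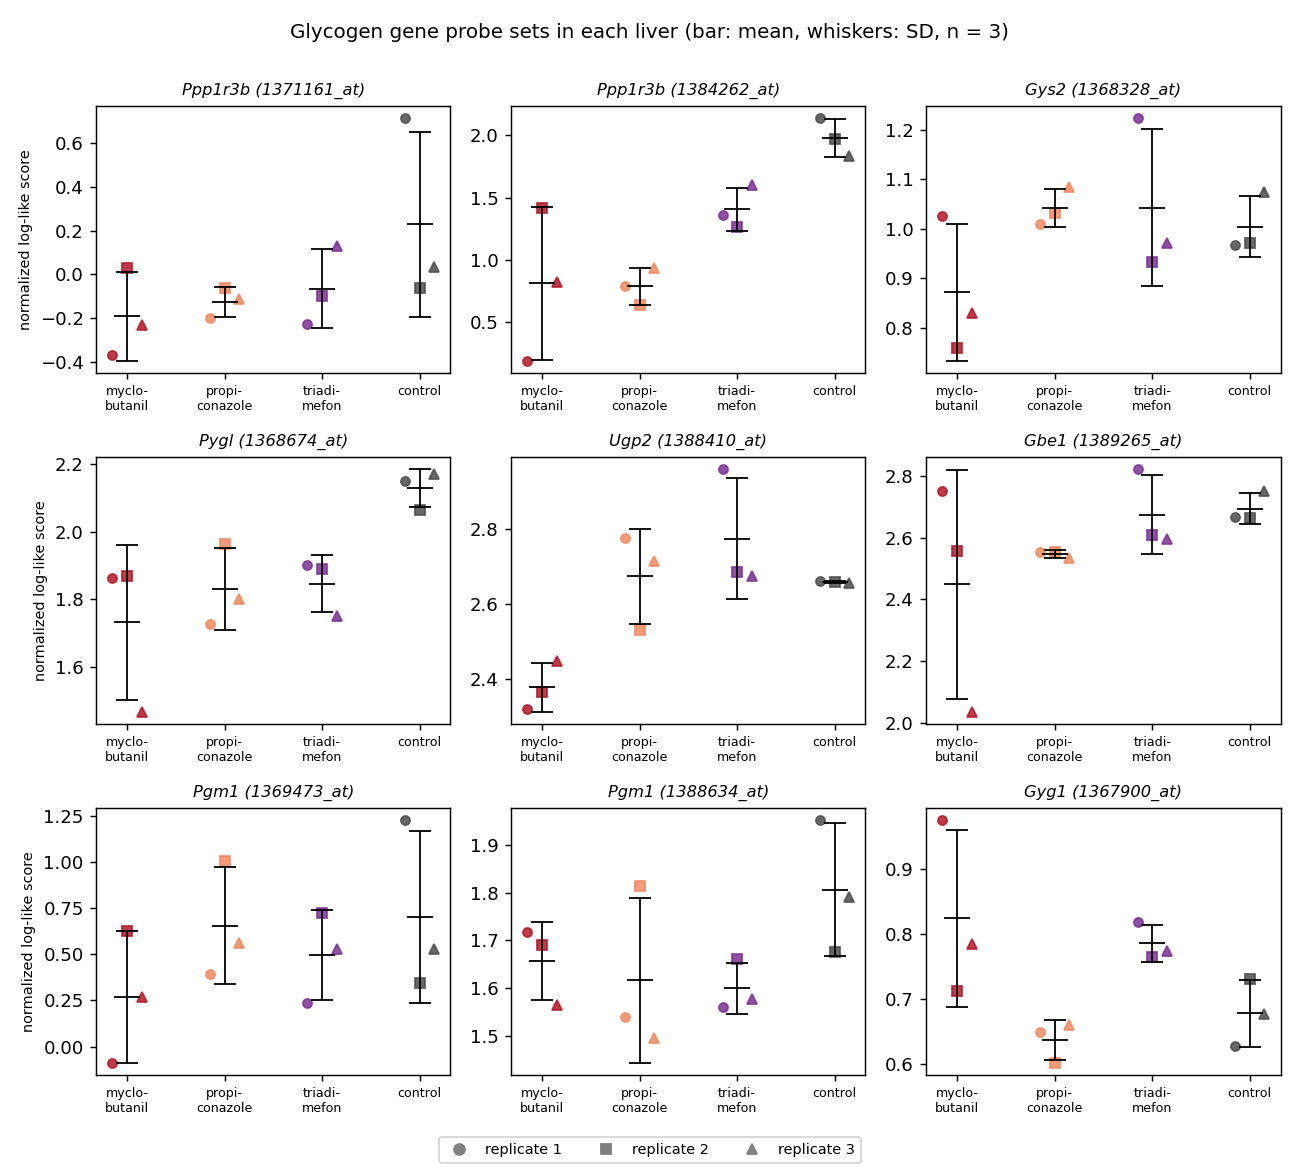
Normalized log-like scores of the 9 glycogen probe sets in each liver, by group on the x axis, with symbols for the replicates, a bar for the mean and whiskers for the SD (n = 3). In Ppp1r3b 1384262_at and in Pygl every treated liver lies below every control liver, and in Ugp2 the myclobutanil livers, at 2.32 to 2.45, lie below all the others.

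In total, 1 of the 9 glycogen probe sets fell and none rose with myclobutanil in limma (4 lower and 0 higher at an unadjusted p under 0.05), where 0.787% of all 21730 tested probe sets fell and 11.9% were lower at that unadjusted p. With propiconazole 1 fell and none rose in limma (2 lower and 0 higher at an unadjusted p under 0.05), where 0.621% of all tested probe sets fell and 6.78% were lower at that unadjusted p. With triadimefon none passed in limma (2 lower and 0 higher at an unadjusted p under 0.05), where 0.769% of all tested probe sets were called in either direction and 6.42% were lower at that unadjusted p. Between myclobutanil and propiconazole none passed in limma (1 lower and 1 higher at an unadjusted p under 0.05), nor did any probe set of the array (0%, with 10.1% at that unadjusted p in either direction). The median difference of the 9 was -0.28 with myclobutanil, -0.15 with propiconazole and -0.21 with triadimefon, beside -0.01 over all tested probe sets in each comparison. For myclobutanil 8 of the 9 differences were below 0, for propiconazole 7 and for triadimefon 6. Most of all tested probe sets also lay below 0, since their median did. With 1 probe set per gene, the median difference of the 7 genes was -0.25 with myclobutanil, -0.15 with propiconazole and -0.02 with triadimefon. Of these 7 differences, 6, 5 and 4 were below 0 for the 3 compounds. The groups did not overlap, with the compound lower, in 3 of 9 for myclobutanil (13.1% of all tested probe sets), 4 of 9 for propiconazole (15.7%) and 3 of 9 for triadimefon (15.8%). With the compound higher, the groups did not overlap in 0 of 9 for myclobutanil, 0 for propiconazole and 2 for triadimefon, Ugp2 and Gyg1.

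**Figure D4:**
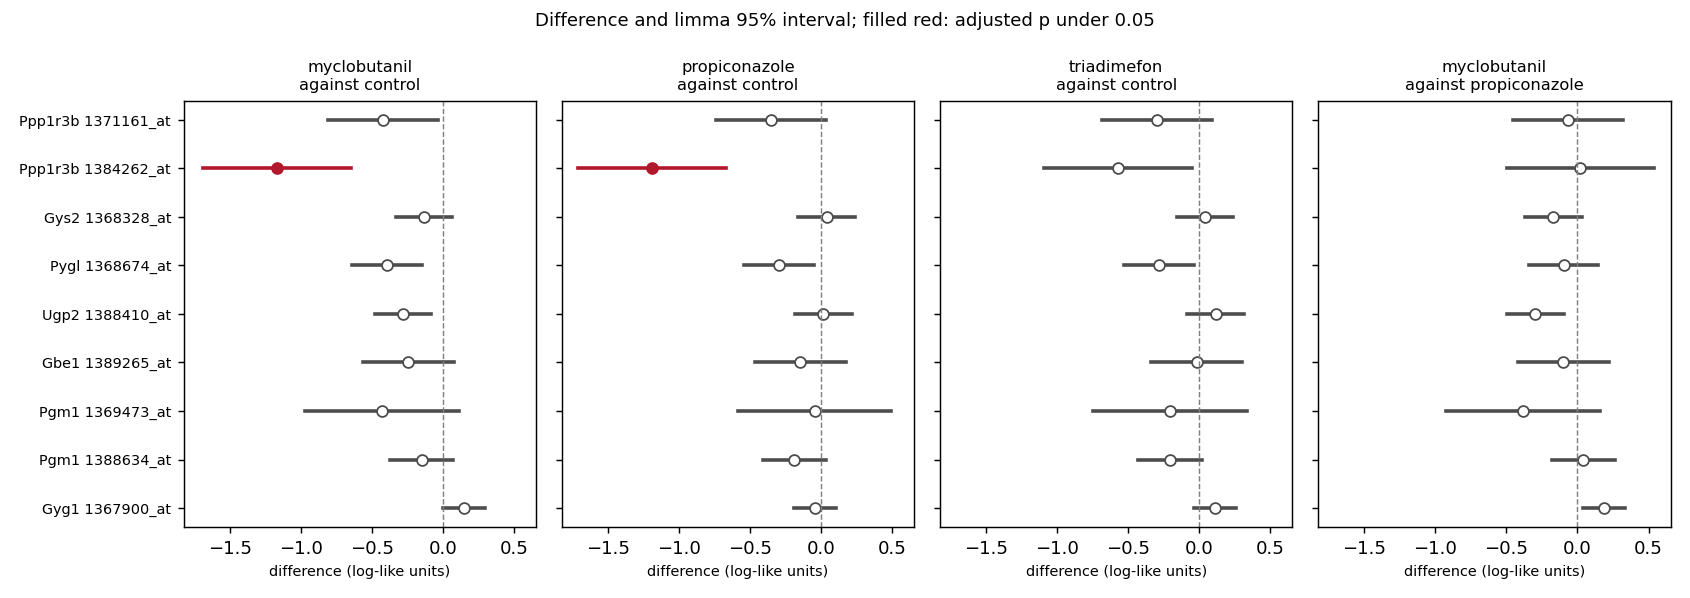
Difference of each glycogen probe set, in log-like units, with its limma 95% interval, for each compound against control and for myclobutanil against propiconazole. Filled red points passed the test: Ppp1r3b 1384262_at at -1.17 with myclobutanil and -1.19 with propiconazole are the only 2 of the 36 differences to do so.

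The promoter windows of the genes were searched for short motifs, some tied to hormonal and clock control of liver genes, others, CCAAT and the TATA box, general to promoters. The search used the RefSeq promoter table of the GRCr8 assembly, which held 7 of the 8 genes and not Ppp1r3b. Windows are 300 bases, from 250 before the start of the gene, and both strands were searched for the E-box CACGTG, the cyclic AMP response element TGACGTCA and its shorter core TGACG, the forkhead motif TGTTTAC, the motif CCAAT and the TATA box, searched as TATAAA. The sequences below belong to the genes whose livers separated most by group, besides Ppp1r3b. Capitals mark motifs.
Pygl promoter, chr6:94476170-94476469, minus strand: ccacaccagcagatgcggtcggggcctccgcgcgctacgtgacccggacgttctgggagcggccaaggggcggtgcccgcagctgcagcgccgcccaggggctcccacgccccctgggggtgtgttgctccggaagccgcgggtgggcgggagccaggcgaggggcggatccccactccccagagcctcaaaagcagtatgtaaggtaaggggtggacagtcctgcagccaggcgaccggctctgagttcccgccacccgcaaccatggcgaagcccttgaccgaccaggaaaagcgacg
Ugp2 promoter, chr14:99697953-99698252, minus strand: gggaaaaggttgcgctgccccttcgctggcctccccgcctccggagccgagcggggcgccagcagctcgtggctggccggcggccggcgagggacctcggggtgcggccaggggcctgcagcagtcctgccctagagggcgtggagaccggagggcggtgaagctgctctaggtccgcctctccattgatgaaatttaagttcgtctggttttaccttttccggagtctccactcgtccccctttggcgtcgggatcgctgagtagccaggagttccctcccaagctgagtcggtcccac
Gyg1 promoter, chr2:104582728-104583027, minus strand: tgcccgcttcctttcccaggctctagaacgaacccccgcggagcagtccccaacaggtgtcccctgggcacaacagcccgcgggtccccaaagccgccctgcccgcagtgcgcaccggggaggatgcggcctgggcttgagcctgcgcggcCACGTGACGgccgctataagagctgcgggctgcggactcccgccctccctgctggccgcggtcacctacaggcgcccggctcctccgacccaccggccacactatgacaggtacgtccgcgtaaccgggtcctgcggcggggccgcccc

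The capitals in Gyg1 are an E-box that runs into an overlapping cyclic AMP core. Over all 33469 promoters of this length 6.42% held the E-box, and 21.2% the core TGACG. Of the 7 windows, the E-box stood in those of Gyg1 and Ppp1r3c, CCAAT (37.5% of all promoters) in those of Ppp1r3c and Pgm1, and TATAAA (14.2%) in those of Gbe1 and Pgm1. None of the 7 held the full cyclic AMP element (1.83%) or the forkhead motif (3.78%), and the windows of Pygl, Ugp2 and Gys2 held none of the letters searched. A match describes the sequence only.

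The genes whose pattern over the 12 livers was most like that of Ppp1r3b 1384262_at, among 11842 other genes with 1 probe set each, were Tecpr1 (Pearson r = 0.95), Lyst (0.94), Stx7 (0.93), Ttc3 (0.93) and Pde2a (0.93). The correlations describe 12 livers in 4 groups and so rise wherever a gene differs between the groups in the same order. Over the deviations from the 4 group means, the most alike were Zfp618 (0.97), Thada (0.95), Vax2 (0.95), Stx7 (0.93) and Chrm2 (0.93), and Stx7 was in both sets. The glycogen genes were less alike: over the 12 livers r was 0.59 for Pygl, 0.38 for Ugp2, 0.35 for Pgm1, 0.28 for Gbe1, -0.05 for Gys2 and -0.37 for Gyg1. Over the deviations r was -0.15 for Pygl, 0.15 for Ugp2, -0.15 for Pgm1, -0.29 for Gbe1, -0.60 for Gys2 and -0.80 for Gyg1. The SD of Ppp1r3b 1384262_at was 0.61 with myclobutanil and 0.15 to 0.17 in the other groups, so the myclobutanil livers weigh most in the deviations. Myclobutanil replicate 1, the array that stood apart, had the lowest Ppp1r3b score, 0.19. It also had the highest Gyg1 and Gys2 scores of its group, 0.98 and 1.03. How far the correlations over deviations rest on that array was not tested.

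Other genes of glycogen handling, such as those of phosphorylase kinase, the phosphatase catalytic subunits, glycogen synthase kinase and glucose 6-phosphate transport, passed the test in 1 case. Of 31 such genes listed, 22 had a tested probe set, taken as the one with the highest mean. With myclobutanil 1 fell and none rose in limma (2 lower and 0 higher at an unadjusted p under 0.05), where 0.979% of the 11843 genes tested fell. With propiconazole none passed in limma (1 lower and 0 higher at an unadjusted p under 0.05, 1.68% of all genes called), and none with triadimefon (2 lower and 0 higher, 0.836% of all genes called). At that unadjusted p stood 23.5%, 16.3% and 14.8% of all genes for the 3 compounds, in either direction. Their median difference was -0.04, -0.02 and -0.03 for the 3 compounds. The glucose 6-phosphatase gene G6pc1 was not analysed here.

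The gene that fell was Slc37a4, which carries glucose 6-phosphate into the endoplasmic reticulum for the last step of glucose release. It scored 1.45, 1.70 and 1.30 with myclobutanil, 2.05, 2.23 and 1.92 with propiconazole, 2.10, 2.04 and 1.96 with triadimefon, and 2.13, 1.95 and 2.11 in control. All 3 myclobutanil livers lay below all the other livers, and Slc37a4 fell there by 0.58 ± 0.11 (limma adjusted p = 0.0344). The difference of myclobutanil from propiconazole was -0.58 ± 0.11 and did not pass over all probe sets (limma adjusted p = 0.175). The call against control ended without control replicates 1, 2 or 3 or myclobutanil replicate 3 (limma adjusted p = 0.115, 0.071, 0.143 and 0.0909) and with the 2 groups alone (limma adjusted p = 0.188), and with arrays weighted by their noise the difference was -0.38.

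Gckr scored 1.85, 1.80 and 1.14 with myclobutanil, 1.71, 1.91 and 1.65 with propiconazole, 1.48, 1.57 and 1.45 with triadimefon, and 2.22, 1.96 and 2.17 in control. All treated livers lay below control. The differences were -0.52 ± 0.16, -0.36 ± 0.16 and -0.61 ± 0.16, and none passed (limma adjusted p = 0.116, 0.349 and 0.133). The myclobutanil difference was -0.29 without myclobutanil replicate 3 and -0.35 with arrays weighted by their noise. Pygb, the brain form of phosphorylase, stood at -0.12 ± 0.04 with propiconazole and -0.10 ± 0.04 with triadimefon (limma adjusted p = 0.257 and 0.362). Phkg2, the catalytic subunit of liver phosphorylase kinase, differed by -0.13 ± 0.07 between myclobutanil and propiconazole (limma adjusted p = 0.525), or by -0.07 without propiconazole replicate 2.

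Among genes that answer insulin, glucagon or fasting in the liver, or whose products carry those hormone signals, 21 of 22 listed were tested. With myclobutanil 1 fell and none rose in limma (2 lower and 0 higher at an unadjusted p under 0.05), with propiconazole none passed (5 lower and 2 higher) and with triadimefon none passed (2 lower and 2 higher). Of all 11843 genes tested, 0.979% fell with myclobutanil, and 1.68% with propiconazole and 0.836% with triadimefon were called in either direction. The unadjusted counts stand beside 23.5%, 16.3% and 14.8% of all genes at an unadjusted p under 0.05 in limma for the 3 compounds, in either direction. The median difference was -0.12, -0.06 and -0.03. Fbp1, the fructose bisphosphatase of gluconeogenesis, was the gene that fell, with scores of 2.70, 2.65 and 2.54 in the myclobutanil livers, 2.90, 2.89 and 2.72 in the propiconazole livers, 2.72, 2.67 and 2.65 in the triadimefon livers, and 3.01, 3.00 and 2.98 in the control livers. The difference was -0.37 ± 0.07 with myclobutanil, -0.16 ± 0.07 with propiconazole and -0.31 ± 0.07 with triadimefon (limma adjusted p = 0.0287, 0.325 and 0.069). The propiconazole difference was -0.36 with the deposited values, -0.34 with median centring and -0.10 without propiconazole replicate 3, and the triadimefon one -0.47 with the deposited values. The myclobutanil call ended with median centring, where the difference was -0.60 (limma adjusted p = 0.0813), with the deposited values at -0.58 (limma adjusted p = 0.12), with the 2 groups alone (limma adjusted p = 0.188), and without control replicates 1, 2 or 3 or myclobutanil replicate 3 (limma adjusted p = 0.10, 0.0946, 0.107 and 0.0734).

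Ppargc1a, a coactivator of gluconeogenic genes that fasting raises, had tested probe sets that both stood higher with triadimefon. Only the dimmer one passed the test, as was seen after the values were known. The dimmer of its tested probe sets, 1393743_at, rose with triadimefon by 0.69 ± 0.12 (limma adjusted p = 0.0212), with scores of 0.48, 0.43 and 0.46 against -0.27, -0.21 and -0.22 in control. That call ended whichever of the 6 arrays was left out (limma adjusted p from 0.0789 to 0.0996). The higher scores of 1393743_at were not particular to triadimefon, since all 9 treated livers lay above all 3 control livers. Its differences of 0.22 ± 0.12 with myclobutanil and 0.38 ± 0.12 with propiconazole did not pass (limma adjusted p = 0.298 and 0.152). The brighter one, 1395518_at, stood at 0.31 ± 0.08 and did not pass (limma adjusted p = 0.136). Its triadimefon scores of 0.56, 0.51 and 0.71 also lay above those of control, 0.23, 0.22 and 0.41. With myclobutanil and propiconazole 1395518_at overlapped control, at 0.06 ± 0.08 and 0.10 ± 0.08 (limma adjusted p = 0.714 and 0.637). Sds, the serine dehydratase that supplies carbon for gluconeogenesis, stood at 0.01 ± 0.34 with myclobutanil, 1.21 ± 0.34 with propiconazole and 0.96 ± 0.34 with triadimefon, and did not pass (limma adjusted p = 0.985, 0.122 and 0.25). Between myclobutanil and propiconazole the differences were -1.20 ± 0.34 for Sds and -0.79 ± 0.23 for the tyrosine aminotransferase gene Tat (limma adjusted p = 0.352 and 0.365). Without myclobutanil replicate 3 the Sds difference from propiconazole was -0.75 and that from control 0.46, and with arrays weighted by their noise the Tat difference was -0.38. Prkaca, the catalytic subunit of protein kinase A, stood at -0.31 ± 0.07 with propiconazole (limma adjusted p = 0.0752). It was also lower with triadimefon, at -0.27 ± 0.07, and with myclobutanil, at -0.14 ± 0.07 (limma adjusted p = 0.151 and 0.305).

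**Figure D5:**
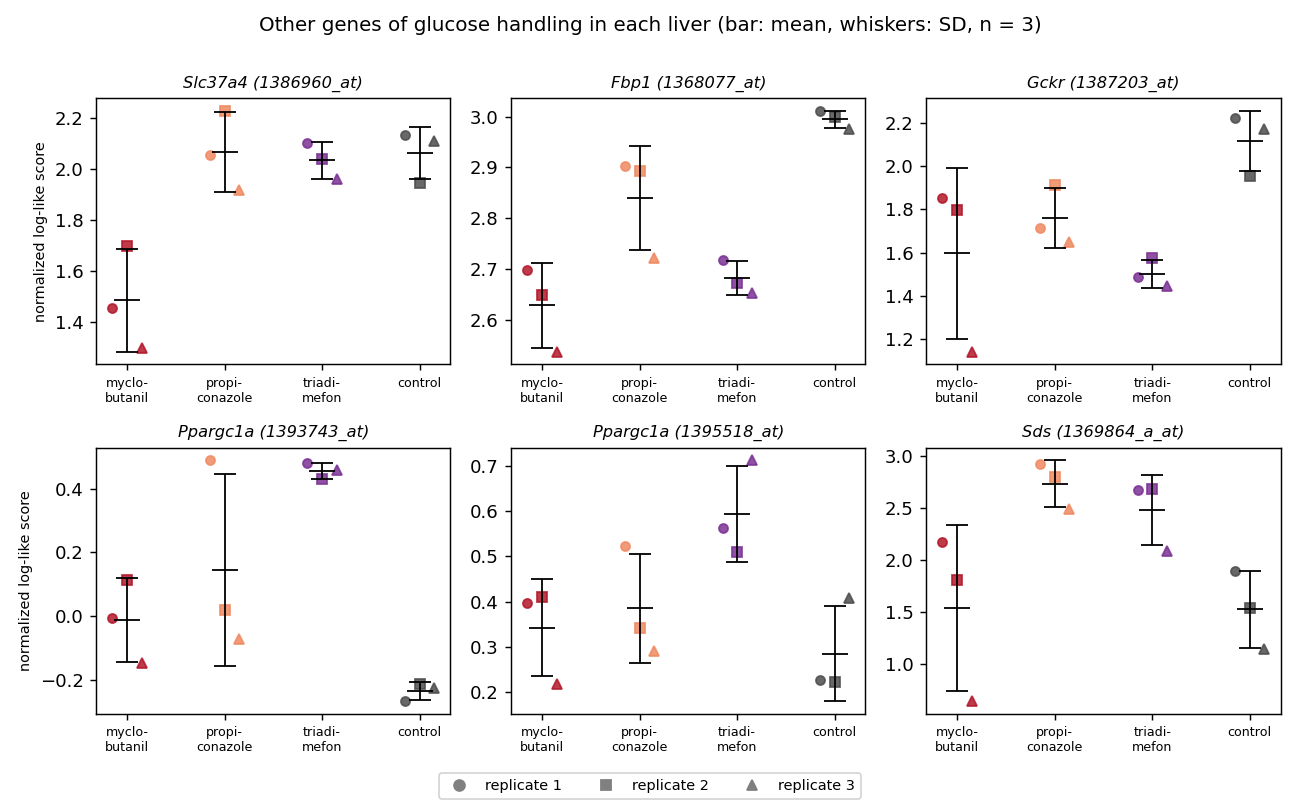
Normalized log-like scores of Slc37a4, Fbp1, Gckr, both Ppargc1a probe sets and Sds in each liver, by group on the x axis, with symbols for the replicates, a bar for the mean and whiskers for the SD (n = 3). In Slc37a4 the myclobutanil livers, at 1.30 to 1.70, lie below all the others, and in Fbp1 and Gckr all treated livers lie below control.

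Markers of other liver cells moved in some of the same livers. Of 8 tested Kupffer cell markers, 5 fell with myclobutanil (Clec4f, Cd5l, C1qa, C1qc and Adgre1), beside 0.979% of all genes, and the mean score of the 8 ran from 0.21 to 0.82 in the myclobutanil livers against 1.12 to 1.28 in control. With propiconazole and triadimefon none of the 8 passed in limma (0 at an unadjusted p under 0.05 in either), at 1.07 to 1.20 and 1.04 to 1.19. Of the 9 hepatocyte markers Cyp2e1 fell with myclobutanil and Apoa1 rose with propiconazole, and their mean score ran from 3.17 to 3.41 with myclobutanil, 3.42 to 3.49 with propiconazole, 3.44 to 3.46 with triadimefon and 3.42 to 3.47 in control. Kdr, an endothelial marker, fell with myclobutanil by 0.55 ± 0.11 and with propiconazole by 0.64 ± 0.11 (limma adjusted p = 0.0407 and 0.0268), Tek fell with propiconazole by 0.30, and the 5 tested endothelial markers averaged 0.84 to 0.94, 0.75 to 0.90 and 0.90 to 1.01 with the 3 compounds against 0.97 to 1.12 in control. Of 6 stellate cell markers Lrat fell with myclobutanil and with propiconazole, by 0.36 and 0.40, and Rgs5 rose with myclobutanil by 0.46, while their mean score ran from 0.45 to 0.79, 0.46 to 0.52 and 0.51 to 0.84 with the 3 compounds and from 0.43 to 0.60 in control. None of the 3 cholangiocyte, 6 leukocyte and 3 blood markers tested passed with any compound in limma (at an unadjusted p under 0.05, 1 higher and 1 lower cholangiocyte marker, 1 higher and 1 lower leukocyte marker and 1 lower blood marker with myclobutanil, and 1 higher cholangiocyte marker with each of the other compounds). Over all genes, 0.979% fell with myclobutanil, and 1.68% with propiconazole and 0.836% with triadimefon were called in either direction. At that unadjusted p stood 23.5%, 16.3% and 14.8% of all genes for the 3 compounds, in either direction. The part of these cells in the Ppp1r3b, Slc37a4 and Fbp1 results was not tested.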

How the data were processed

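Liver RNA of 12 rats in 4 groups was measured on 12 Affymetrix arrays, 1 liver per array, per the labels' protocols. The deposited value is a log-like score per probe set made by the authors, for which no summary method, normalization or log base was found in the labels or file headers. Quantile normalization was applied by a rule set beforehand, because the range of the array medians, 0.1385, exceeded the median SD within groups, 0.0736. A range and an SD are unlike measures of spread. The range came from myclobutanil replicate 1, at 0.157, since the other medians lay between 0.0182 and 0.0552. Of 31042 probe sets without controls, the 30% with the lowest mean (9312) were left out as dim.

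Names come from the platform annotation, which gives a single gene for 20826 probe sets; RefSeq's GRCr8 table brought 20758 of these to current symbols by Entrez ID. The test was limma 3.58.1 under R 4.3.3, with 1 mean per group, all 12 arrays, 8 residual degrees of freedom and an intensity trend in the variance, and Benjamini-Hochberg adjustment over the 21730 tested probe sets. The test was checked on simulated data. Figures used matplotlib 3.10.9.

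All 9 glycogen probe sets are named. From the lists of other genes, called genes are named, or up to 2 with the smallest p, and for likeness to Ppp1r3b the 5 genes with the highest correlation. The members and lists were chosen with earlier results of these data known. Alternatives were other scalings, filters and variance models, array weights, the 2 groups alone, the replicate number as a block and leaving out each array. No 2 arrays held identical values.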

Additional observations from a re-analysis of the deposited data

Results flagged for a closer look

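Ugp2, which makes UDP-glucose, lay on opposite sides of control with 2 compounds. All 3 myclobutanil livers were below all control livers, with a difference of -0.28, and all 3 triadimefon livers were above them, with a difference of 0.12. The difference between these compounds was not tested, since their doses of 300 and 175 mg/kg/day differ. The control livers had almost the same score after quantile normalization, with an SD of 0.0026. In the deposited values the triadimefon livers, at 2.53 to 3.02, overlapped the control livers, at 2.63 to 3.02, while the myclobutanil livers, at 2.20 to 2.41, stayed below them. The triadimefon difference was -0.03 with the deposited values and -0.02 with median centring, and 0.02 without triadimefon replicate 1 after quantile normalization.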

How the results depend on the processing

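The number of glycogen probe sets called with myclobutanil, 1 as reported, was 2 with array weights, 0 with the replicate block, 0 with the 2 groups alone, and 0 to 1 with 1 array left out. With propiconazole, 1 as reported, it was 0 without the filter on dim probe sets (Ppp1r3b limma adjusted p = 0.0501), 0 with the replicate block and 0 with any of its 6 arrays left out. With triadimefon, 0 as reported, it was 1 with the 2 groups alone (Ppp1r3b limma adjusted p = 0.0451) and 0 with 1 array left out. Between myclobutanil and propiconazole it was 0 in each of the 14 alternatives. The second call under array weights was Ugp2 (limma adjusted p = 0.0454). For triadimefon, where the report gives no call, Fbp1 passed with array weights, without the intensity trend and with the 2 groups alone, and Gckr with array weights and the 2 groups alone, and for propiconazole Sds passed with array weights, the replicate block and the 2 groups alone. The sign of the Ppp1r3b 1384262_at difference from control was kept in 14 of 14 alternatives for each compound. Under the replicate block its adjusted p was 0.071 for myclobutanil and 0.0781 for propiconazole. The labels share replicate numbers, but over all tested probe sets the numbers did not pair the arrays. Correlations of same-numbered arrays' deviations ran from -0.49 to 0.50, with 3 of 18 above 0.1, and the best match in another group had the same number in 6 of 36 cases. Single genes can differ from this: replicate 3 was lowest in every group for Sds and Fbp1, as was seen after the values were known. With the block the SE of the Sds differences went from 0.34 to 0.19, and that of Gyg1 from 0.068 to 0.071. Whether the numbers mark something the livers shared was not tested. Over all probe sets the calls for myclobutanil were 395 as reported, 1669 with array weights, 180 with the block, 8 with the 2 groups alone and 30 to 922 with 1 array left out. For propiconazole they were 311, 1313, 121, 648 and 35 to 170, and for triadimefon 167, 1028, 87, 621 and 6 to 60. Between myclobutanil and propiconazole they were 0 as reported, 344 with array weights, 5 without the intensity trend, 2 with the lower 50% of probe sets left out, 1 with the deposited values, 1 with median centring and 0 to 29 with 1 array left out. For propiconazole, median centring gave 158 higher and 63 lower calls beside 176 and 135 as reported. The cause of these changes was not tested, and the estimate of the array weights stopped before it had fully converged. Limits are 3 livers a group, a score of unstated base and a dim second Ppp1r3b probe set.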
